A study of Mus musculus with 8 samples.

Results

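The peroxisome proliferator-activated receptors (PPARs), their RXR partners and a set of their lipid target genes were followed in cultured mouse ovarian follicle cells. The group held 10 genes: the receptors Pparg, Ppara and Ppard, the partners Rxra and Rxrb, and the lipid genes Fabp4, Cd36, Plin2, Angptl4 and Cpt1a. They were chosen by name and found through their mouse Entrez gene IDs, and all 10 were among the 24235 genes with such an ID on the arrays. For 9 of the 10, the median signal over the 8 arrays reached the minimum used for testing, which was a scaled signal of 10. Cd36 did not reach it.

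PPARs are nuclear receptors that bind fatty acids and their derivatives. Each pairs with an RXR receptor, and the pair binds DNA at direct repeats of a hexamer and turns on genes of fat storage, transport and oxidation. PPARγ is the master factor of fat cells, and in the ovary it is found chiefly in granulosa cells of growing follicles. PPARα drives fatty acid oxidation in liver and heart, and PPARδ is present in most tissues.

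The cells came from preantral follicles of Swiss female mice aged 8 weeks, and each replicate pooled 5 mice. They were studied at 9 days of culture, by then in hormone-free medium, and the labels describe them as mostly granulosa cells, the somatic cells around the oocyte. All received a DsRed plasmid and 12 pmol of an siRNA pool, directed against Foxl2 or a control, and 100 nM 17β-estradiol (E2) or its vehicle for the last 10 h before lysis. The siRNA step is given as 24 h, which the labels count back from lysis and the methods place ahead of the E2. This gave 4 groups of 2 arrays, called the control vehicle, control E2, FOXL2 vehicle and FOXL2 E2 groups after their siRNA label and treatment. FOXL2 is a forkhead transcription factor that maintains granulosa cells, and the series asked how its loss changes the response to E2.

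Values below are log2 scaled signals, that is, the processed spot intensity after each array was brought to the same 75th percentile. A difference of 1 on this scale is a 2-fold change of signal. A gene was called changed when its adjusted p from limma, corrected over all 15638 genes tested, was at most 0.05. Replicate arrays correlated at 0.989 to 0.992 across genes. The gene signal of Foxl2 itself did not pass the test, at a difference of 0.18 between the 4 arrays labelled FOXL2 siRNA and the 4 labelled control siRNA (SE 0.10, limma adjusted p = 0.334). Its 2 probes went different ways, with 0.18 for the bright probe A_55_P2037732 (limma adjusted p = 0.364) and −0.97 for the dim probe A_55_P2041668 (limma adjusted p = 0.020). The dim probe lost its call without FOXL2 vehicle replicate 2, FOXL2 E2 replicate 2 or control E2 replicate 1. The groups are therefore named below by their labels. By qPCR, the study reports lower mRNA of each gene its siRNA pools targeted, Foxl2 among them. Of 11 granulosa markers, 8 were well above background on all 8 arrays, while Amh and Fshr were above it on 0 arrays. Of the 6 adipocyte markers, Adipoq, Cidec, Lep and Plin1 were above background on 0 arrays, Cfd on 1 and Retn on 7. The summed signal of the 6 was 34 to 83 per array. Theca and steroidogenic markers summed to 20827 to 23819 on the control siRNA arrays and to 38773 to 41264 on the arrays labelled FOXL2 siRNA. Of the 4 present on the array platform, 3 were above background in each and Lhcgr in 0. Most of the sum was Cyp11a1, at 14.02 to 15.12, with Cyp17a1 at most 12.09 and Star at most 11.69. Averaged over both treatments, Cyp11a1 was called higher at 0.89 (limma adjusted p = 0.0002), as were 6.41% of all genes. Cyp17a1 at 0.62 and Star at 0.47 were not called (limma adjusted p = 0.110 and 0.105). Macrophage markers summed to 549 to 605 on the control siRNA arrays and to 583 to 714 on the others, with 3 or 4 of 7 above background. Cd14, Cd68 and Csf1r were above it on all 8 arrays and Adgre1 on 7, while Lyz2, Msr1 and Ptprc were above it on 0. Endothelial markers summed to 1102 to 1815 and to 1592 to 1954 in the same order. Kdr and Pecam1 were above background on all 8 arrays, and Cdh5, Emcn and Tek on 0. Oocyte markers summed to 114 to 261 and to 138 to 184. Gdf9 was above background on all 8 arrays, Ddx4 on 7, Dppa3 on 1 and the other 4 on 0.

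The promoter sequences of Pparg are shown because Pparg carried the largest change tested in the group and has several start sites. RefSeq (GRCm38.p6) gave 3 windows, each the 250 bases upstream of a start on the forward strand of chromosome 6. In the first pair of windows, capitals mark the hexamer AGGTCA, the core letters bound by many nuclear receptors. In the last window they mark the forkhead core TAAACA, which lies on the reverse strand and so reads TGTTTA.
Pparg, chr6:115360894-115361143: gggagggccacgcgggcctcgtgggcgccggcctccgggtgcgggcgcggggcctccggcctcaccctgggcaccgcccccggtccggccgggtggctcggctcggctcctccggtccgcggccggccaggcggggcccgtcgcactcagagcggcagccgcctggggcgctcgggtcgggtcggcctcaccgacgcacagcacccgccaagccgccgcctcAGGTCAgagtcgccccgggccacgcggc
Pparg, chr6:115362099-115362348: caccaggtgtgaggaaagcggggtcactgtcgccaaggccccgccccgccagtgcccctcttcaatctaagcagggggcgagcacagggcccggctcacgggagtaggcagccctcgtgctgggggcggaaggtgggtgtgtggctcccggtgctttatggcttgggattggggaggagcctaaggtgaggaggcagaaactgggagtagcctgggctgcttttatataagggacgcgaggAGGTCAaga
Pparg, chr6:115421816-115422065: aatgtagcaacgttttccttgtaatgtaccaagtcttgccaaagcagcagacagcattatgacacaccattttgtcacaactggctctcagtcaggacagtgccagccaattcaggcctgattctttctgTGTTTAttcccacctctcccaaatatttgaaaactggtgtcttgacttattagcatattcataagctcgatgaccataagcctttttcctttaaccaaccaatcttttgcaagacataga
The hexamers began 28 and 9 bases before their starts, and the forkhead core began 120 bases before its start. Both strands of the windows were searched. Windows were found for 8 of the 10 genes, 12 in all, and Angptl4 and Fabp4 had none in the table. The hexamer occurred in 6 of the 12 windows and in 14.0% of all 32851 windows of that length. The forkhead core occurred in 2 of the 12, the window of Pparg and one of Rxrb, and in 12.0% of all windows. A direct repeat of the hexamer with 1 base between the copies, the PPAR response element, occurred in 0 of the 12 and in 0.0335% of all windows. Such matches describe letters only, and which start the Pparg probe reads was not analysed here.

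Pparg (Entrez 19016), the gene of PPARγ, had a far lower signal on the arrays labelled FOXL2 siRNA. It was 12.95 and 12.94 in control vehicle, and 12.97 and 12.79 in control E2. It was 11.05 and 10.68 in FOXL2 vehicle, and 11.46 and 10.82 in FOXL2 E2. All 4 arrays labelled FOXL2 siRNA lay below all 4 control arrays, by a gap wider than the spread within any group. At any gap, they lay so for 10.7% of all genes tested. On the linear scale the control arrays read 7086 to 8048 units and the others 1645 to 2811.

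With vehicle, Pparg fell by 2.07 on the log2 scale, to 23.7% of the control level (SE 0.21, limma adjusted p = 0.0023). With E2 it fell by 1.75, to 29.8% of the control level (SE 0.21, limma adjusted p = 0.0053), and without control E2 replicate 1 this became 1.65 and missed the threshold (limma adjusted p = 0.0566). Averaged over both treatments the difference was −1.91 (95% confidence interval −2.25 to −1.57, limma adjusted p = 0.0003), or 26.6% of the control level. Only 0.281% of the 15638 genes had a lower averaged difference. Among the 4 groups, control vehicle was highest at 12.94 ± 0.01 (SD, n = 2) and control E2 followed at 12.88 ± 0.13. FOXL2 E2 came next at 11.14 ± 0.45 and FOXL2 vehicle was lowest at 10.87 ± 0.26. The first pair of groups overlapped, and so did the last pair. In RNA from a mixed culture, fewer cells of a type and less RNA per cell cannot be told apart. Of the 9 granulosa markers tested in the averaged comparison, 3 were called lower, against 6.19% of all genes, and 0 higher, against 6.41%. The 3 were Fst, Gja1 and Esr2 at −2.02, −1.80 and −0.46, with the other 6 between −0.75 and 0.41. The summed signal of the granulosa list was 126333 to 138911 on the control arrays and 132476 to 159258 on the arrays labelled FOXL2 siRNA. Most of that sum came from Amhr2, Inha and Inhba, which were not called, so it says little about the rest of the list. The part of a change in cell makeup in the Pparg result was not tested.

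**Figure D1:**
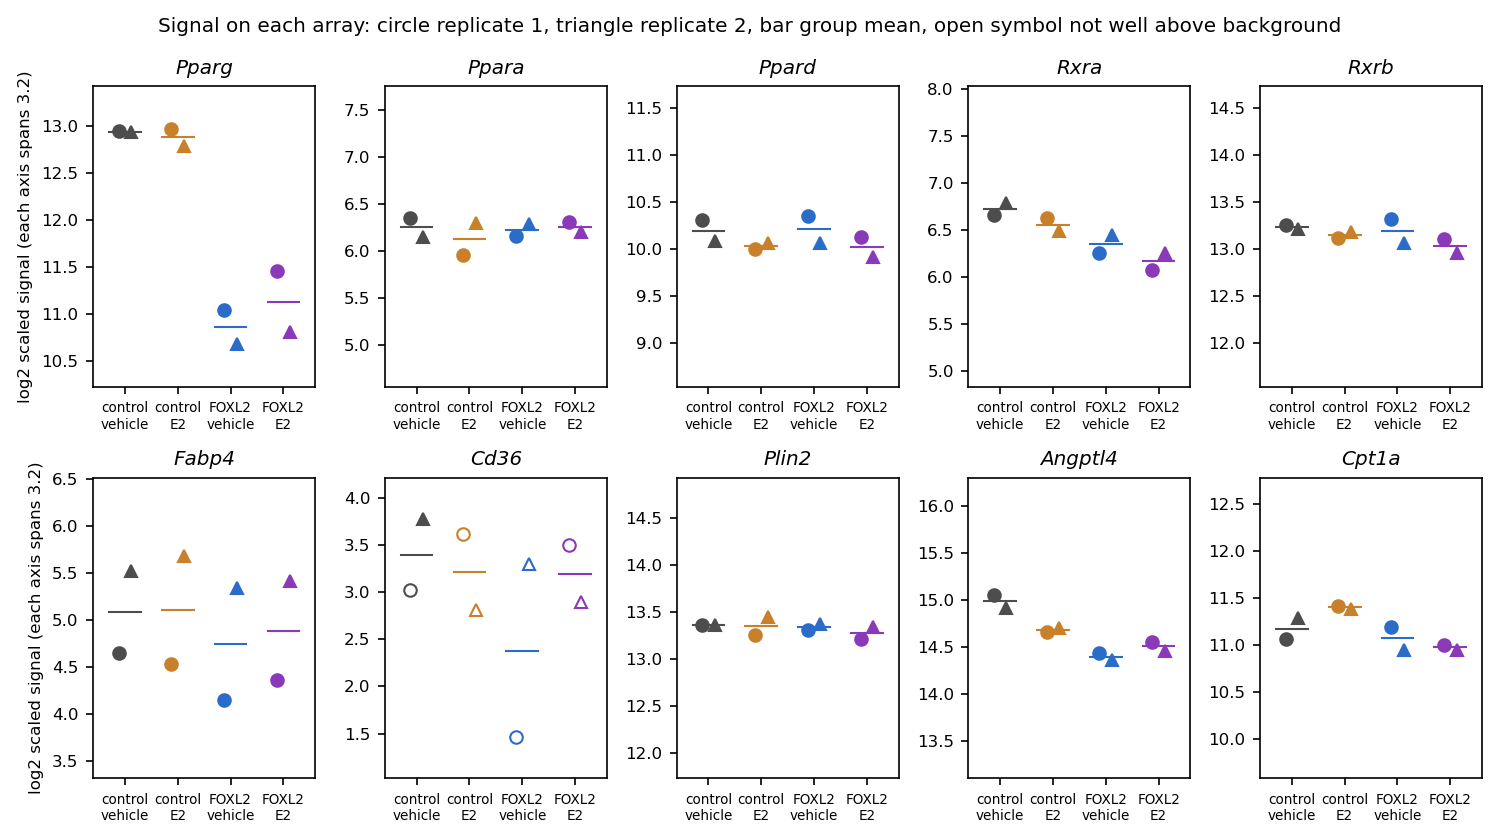
Log2 scaled signal of each of the 10 genes (vertical axis, 3.2 units in every panel) on the 2 arrays of each siRNA and treatment group (horizontal axis), with group means as bars, replicate 1 as circles and replicate 2 as triangles. Pparg drops from 12.79 to 12.97 on the control arrays to 10.68 to 11.46 on those labelled FOXL2 siRNA, Fabp4 splits by replicate number, and Cd36 is well above background on 1 array.

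The other receptors of the family did not pass the test in any comparison. Ppara (Entrez 19013) read 6.35 and 6.15 in control vehicle, 5.95 and 6.30 in control E2, 6.16 and 6.29 in FOXL2 vehicle, and 6.31 and 6.20 in FOXL2 E2. The 4 groups overlapped. Its averaged difference between the siRNAs was 0.05 (95% confidence interval −0.26 to 0.36). It is read by 3 probes, of which A_55_P2071596 was above background on 2 of the 8 arrays.

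Ppard (Entrez 19015) read 10.30 and 10.09 in control vehicle, 10.00 and 10.06 in control E2, 10.35 and 10.07 in FOXL2 vehicle, and 10.13 and 9.92 in FOXL2 E2. The siRNA groups overlapped here too, and the averaged difference was 0.00 (95% confidence interval −0.22 to 0.22). For both genes the averaged interval leaves out a fall of the size measured for Pparg, though no difference between genes was tested.

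The RXR partners gave no call either. Rxra (Entrez 20181) read 6.66 and 6.79 in control vehicle and 6.63 and 6.49 in control E2. It read 6.26 and 6.45 in FOXL2 vehicle and 6.08 and 6.26 in FOXL2 E2. The 4 arrays labelled FOXL2 siRNA lay below the 4 control arrays without overlap, as they did for 10.7% of all genes tested. The averaged difference was −0.38 (SE 0.12, limma adjusted p = 0.0752). It was called with the replicate number as a block (limma adjusted p = 0.0234).

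The 2 probes of Rxra did not behave alike. A_55_P2074331 read 115.9, 118.7, 108.4 and 87.2 units on the control arrays and 58.1, 83.8, 55.7 and 56.6 on the arrays labelled FOXL2 siRNA, in each case with vehicle before E2. Its groups did not overlap, a pattern not counted over all probes. In a fit over all 31487 probes its difference was −0.77 (limma adjusted p = 0.022). This call held with FOXL2 vehicle replicate 2, control E2 replicate 2 or control vehicle replicate 1 left out. It was lost without any one of the other 5 arrays (differences −0.90 to −0.64, limma adjusted p up to 0.0935). A_51_P307370 read 86.5, 103.3, 89.5 and 92.8 units on the control arrays and 95.2, 90.7, 79.5 and 97.2 on the others, with full overlap and a difference of −0.04 (limma adjusted p = 0.908). Whether the probes read different transcripts of Rxra was not analysed here.

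Rxrb (Entrez 20182) read 13.26 and 13.21 in control vehicle, 13.12 and 13.18 in control E2, 13.32 and 13.06 in FOXL2 vehicle, and 13.11 and 12.96 in FOXL2 E2. The arrays overlapped between the siRNAs. The averaged difference was −0.08 (95% confidence interval −0.25 to 0.09).

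**Figure D2:**
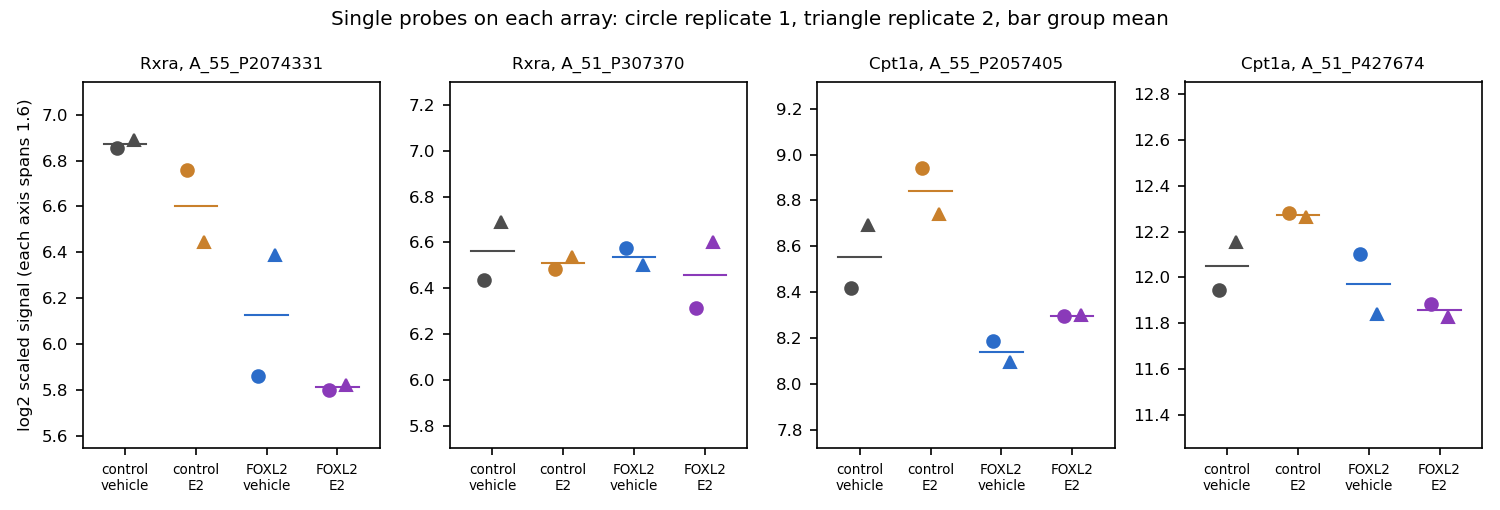
Log2 scaled signal (vertical axis, 1.6 units in every panel) of the 2 probes of Rxra and the 2 probes of Cpt1a on the 2 arrays of each group (horizontal axis), with group means as bars. For each gene, one probe (A_55_P2074331, A_55_P2057405) separates the siRNA groups, while A_51_P307370 and A_51_P427674 overlap between them.

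The lipid uptake genes Fabp4 and Cd36, neither of which was called, had low signals. Fabp4 was still well above background on all 8 arrays, and Cd36 on 1. Fabp4 (Entrez 11770) encodes a fatty acid carrier typical of fat cells and macrophages. It read 4.65 and 5.52 in control vehicle, 4.52 and 5.68 in control E2, 4.15 and 5.34 in FOXL2 vehicle, and 4.36 and 5.41 in FOXL2 E2. Replicate 1 was the lower array in all 4 groups, at 17.7 to 25.1 units against 40.5 to 51.1 for replicate 2. The largest split was therefore by replicate number. Within replicate 1 the control arrays read 25.1 and 23.0 units and the arrays labelled FOXL2 siRNA 17.7 and 20.5. Within replicate 2 they read 45.8 and 51.1 against 40.5 and 42.5, again lower with FOXL2 siRNA. The averaged comparison was called in 0 alternatives, the replicate block among them. The averaged difference was −0.28, with a wide 95% confidence interval of −1.24 to 0.68.

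Cd36 (Entrez 12491), a membrane transporter of fatty acids, was well above background on 1 of 8 arrays, control vehicle replicate 2, where it read 13.8 units. The other 7 arrays held 2.75 to 12.3 units, and the lowest signal of any probe well above background was 9.84 to 14.8 depending on the array. No fold is given for Cd36, because all but 1 of its values lie at that limit.

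The storage and oxidation genes differed among themselves. Plin2 (Entrez 11520), which coats lipid droplets in most cells, was the steadiest of these. It read 13.36 and 13.37 in control vehicle, 13.26 and 13.45 in control E2, 13.31 and 13.37 in FOXL2 vehicle, and 13.21 and 13.34 in FOXL2 E2. The groups overlapped, and the averaged difference was −0.05 (95% confidence interval −0.20 to 0.10).

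Angptl4 (Entrez 57875), a secreted inhibitor of lipoprotein lipase, was lower on the arrays labelled FOXL2 siRNA. It read 15.05 and 14.92 in control vehicle and 14.66 and 14.70 in control E2. It read 14.44 and 14.36 in FOXL2 vehicle and 14.55 and 14.46 in FOXL2 E2. The 4 arrays labelled FOXL2 siRNA lay below the 4 control arrays, as they did for 10.7% of all genes tested. With vehicle it fell by 0.59 on the log2 scale, to 66.6% of the control level (SE 0.08, limma adjusted p = 0.0078). Without FOXL2 vehicle replicate 2 this was a fall by 0.55 and missed the threshold (limma adjusted p = 0.0708). With E2 the difference was −0.17 and was not called (limma adjusted p = 0.368). The averaged difference was −0.38 (SE 0.06, limma adjusted p = 0.0059), or 76.9% of the control level.

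Cpt1a (Entrez 12894), the gate of mitochondrial fatty acid oxidation, did not pass the test. It read 11.07 and 11.28 in control vehicle and 11.42 and 11.38 in control E2. It read 11.19 and 10.94 in FOXL2 vehicle and 11.0 and 10.95 in FOXL2 E2. The siRNA groups overlapped with vehicle but not with E2, where the difference was −0.43 (limma adjusted p = 0.0909), and the averaged difference was −0.27 (SE 0.08, limma adjusted p = 0.0732). With the replicate number as a block, both were called (limma adjusted p = 0.0151 and 0.0179). Its probes differed in size, with −0.48 for A_55_P2057405 (limma adjusted p = 0.025) and −0.25 for A_51_P427674 (limma adjusted p = 0.121). Of the arrays left out in turn, the call of A_55_P2057405 held only without control vehicle replicate 1, and without the other arrays the limma adjusted p reached 0.101.

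Counted over the 9 genes tested, 2 were called with vehicle, Pparg and Angptl4, both lower, against 6.57% of all genes called and 2.94% called lower. With E2 there was 1, Pparg, lower, against 4.39% of all genes and 2.14% called lower. In the averaged comparison Pparg and Angptl4 were called again, both lower, against 12.6% of all genes and 6.19% called lower. The median difference of the 9 was −0.10, −0.17 and −0.27 in these comparisons, beside −0.01, 0.00 and 0.00 over all genes. The averaged and the separate comparisons share their arrays, so they are not separate evidence.

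**Figure D3:**
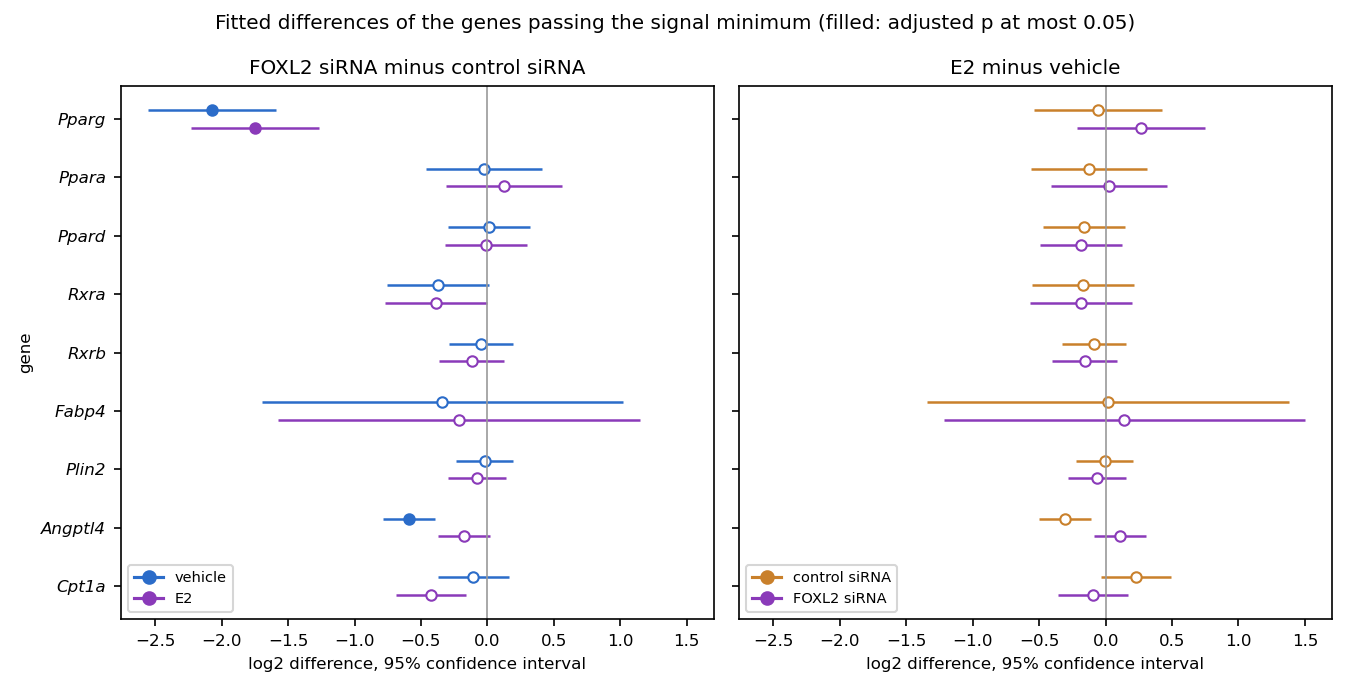
Fitted log2 differences (horizontal axis, bars 95% confidence interval) for the 9 genes tested (vertical axis), as FOXL2 siRNA minus control siRNA with each treatment and as E2 minus vehicle with each siRNA, with filled points called at an adjusted p of at most 0.05. Pparg with both treatments and Angptl4 with vehicle are the filled points, and no E2 difference is filled.

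E2 changed none of the 9 genes by the test. The count called was 0 with control siRNA, against 0.0192% of all genes, and 0 with FOXL2 siRNA, against 0.0128%. At an unadjusted p of 0.05 limma gave 1 of the 9, Angptl4, with control siRNA, against 4.58% of all genes, and 0 with FOXL2 siRNA, against 3.04%. Differences ranged from −0.31 to 0.23 with control siRNA and from −0.18 to 0.27 with FOXL2 siRNA. The study's own E2 rule asks for a difference of at least 1 that is also more than 2 times the SDs of both groups added up. With either siRNA, 0 of the 9 met it. The share of all genes meeting it was not counted here, so this describes the 9 only.

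Pparg differed between E2 and vehicle by −0.06 with control siRNA (95% confidence interval −0.54 to 0.42) and by 0.27 with FOXL2 siRNA (−0.21 to 0.75). Angptl4 was −0.31 with control siRNA (95% confidence interval −0.50 to −0.11, limma adjusted p = 0.726). With FOXL2 siRNA it was 0.11 (95% confidence interval −0.09 to 0.30), in the other direction and also not called. The difference between these E2 effects was 0.41 (95% confidence interval 0.14 to 0.69) and was not called (limma adjusted p = 0.573). For this difference 0 of the 9 genes were called, against 0.243% of all genes. In order of level, Angptl4 was highest in control vehicle at 14.98 ± 0.09 (SD, n = 2), then in control E2 at 14.68 ± 0.03, in FOXL2 E2 at 14.51 ± 0.06 and in FOXL2 vehicle at 14.40 ± 0.06. No neighbours in that order passed the test.

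A wider list held 62 further genes of PPAR signalling and fatty acid use, of which 50 were tested. In the averaged comparison 7 of the 50 were called, 3 higher and 4 lower, against 6.41% of all genes called higher and 6.19% called lower, so the share called was near that of all genes. The median difference of the 50 was −0.06. With vehicle 2 of 50 were called, against 6.57% of all genes, and with E2 0 of 50, against 4.39%. With E2, 10 of the 50 had an unadjusted p of at most 0.05 in limma, against 16.6% of all genes. E2 itself gave 0 calls with either siRNA, and 1 of the 50 had an unadjusted p of at most 0.05 in each, against the 4.58% and 3.04% above.

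Of the partners and coregulators, 1 of 7 tested was called, lower. Nrip1 (RIP140), a corepressor of nuclear receptors in fat and ovary, read 10.02 and 9.90 in control vehicle, 9.90 and 9.68 in control E2, 9.17 and 8.93 in FOXL2 vehicle, and 9.42 and 9.13 in FOXL2 E2. For Nrip1 the siRNA groups did not overlap, as was so in this direction for 10.7% of all genes tested. It fell by 0.91 on the log2 scale with vehicle (SE 0.14, limma adjusted p = 0.011), a call lost without FOXL2 vehicle replicate 2 or either array of control vehicle. The averaged fall, a difference of −0.71 (SE 0.10, limma adjusted p = 0.0039), was called with any one array left out.

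Mitochondrial genes went both ways, with 2 higher and 1 lower of 16 tested. In the averaged comparison the siRNA groups did not overlap for 5 of these 16. The share of all genes with the FOXL2 siRNA arrays all above the control arrays is not given here. Acaa2, the last enzyme of mitochondrial β-oxidation, read 13.63 and 13.41 in control vehicle, 13.56 and 13.58 in control E2, 14.24 and 13.91 in FOXL2 vehicle, and 14.19 and 14.06 in FOXL2 E2. It rose by 0.56 in the averaged comparison (SE 0.09, limma adjusted p = 0.0066) without overlap, a call kept with any one array left out, and by 0.56 with vehicle (limma adjusted p = 0.042), a call that held without FOXL2 vehicle replicate 2 and with no other array left out. Acsl4 and Acsl1 both join fatty acids to coenzyme A. Acsl4 rose by 0.41 (limma adjusted p = 0.029), from 11.99 to 12.36 on the control arrays to 12.40 to 12.78 on the others, while Acsl1 was lower at −0.37 (limma adjusted p = 0.037), from 7.80 to 8.01 down to 7.48 to 7.55.

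In the other lists 1 gene each was called. Of 11 lipid droplet genes tested, Plin4, a droplet coat protein, was lower at −0.88 (limma adjusted p = 0.038), from 4.78 to 5.52 on the control arrays to 3.92 to 4.66 on the others, close to the background. With another background correction (normexp) its difference was −0.20 (limma adjusted p = 0.254). Of 10 peroxisomal and microsomal genes, the acyl-CoA thioesterase Acot1 was lower at −0.88 (limma adjusted p = 0.018), from 10.09 to 10.58 down to 9.13 to 9.81. It has near-identical neighbours such as Acot2, which was −0.20 (limma adjusted p = 0.713), and its probe may share signal with them. Of 6 uptake and transport genes, Dbi, which binds acyl-CoA, was higher at 0.28 (limma adjusted p = 0.040), from 14.65 to 14.88 up to 15.01 to 15.14. Leaving out 1 array ended these calls in 7 of 8 cases for Plin4 (kept without control E2 replicate 2), for Dbi and for Acsl1 (both kept without control vehicle replicate 1). It ended them in 6 of 8 for Acsl4, kept without FOXL2 E2 replicate 1 or control E2 replicate 2, and in 4 of 8 for Acot1. The calls of Acot1 were lost without replicate 2 of either FOXL2 siRNA group, control E2 replicate 1 or control vehicle replicate 1.

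**Figure D4:**
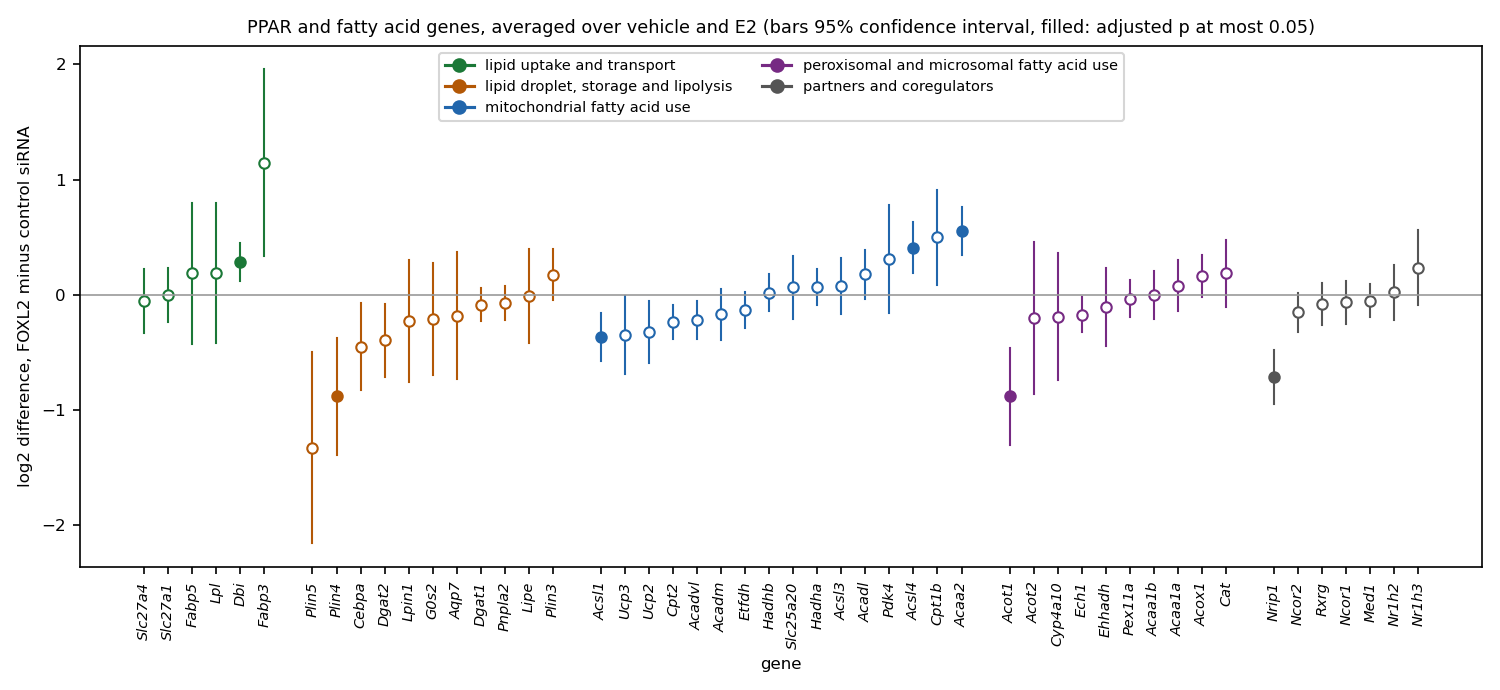
Log2 difference between FOXL2 siRNA and control siRNA averaged over vehicle and E2 (vertical axis, bars 95% confidence interval) for the 50 tested genes of the wider list (horizontal axis), coloured by list, with filled points called. Filled points are 3 above 0 (Dbi, Acsl4, Acaa2) and 4 below (Plin4, Acsl1, Acot1, Nrip1), and the median of the 50 is −0.06.

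The genes whose signal followed Pparg and Angptl4 most closely over the 8 arrays were found by Pearson correlation among 12627 genes well above background. For Pparg these were Cers5, a ceramide synthase, at 0.996, Gpnmb, a membrane glycoprotein, at 0.993 and Pcdh7, a protocadherin, at 0.993. For Angptl4 they were Irs1, the insulin receptor substrate, at 0.983, Ndufa8, a subunit of respiratory complex I, at 0.983 and Omd, a matrix proteoglycan, at 0.980. Within the group itself, Pparg correlated at 0.87 with Angptl4, at 0.76 with Rxra and at 0.74 with Cpt1a. These values describe 8 arrays that fall into siRNA groups and share their scaling, and carry no test.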

How the data were processed

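One-colour Agilent arrays were hybridised with Cy3-labelled RNA amplified from 50 ng per sample. Per the file headers, the scanner files give a processed intensity (background subtracted, spatially detrended) and a raw intensity from Feature Extraction 11.5.1.1. The authors' table is log2: 98.6 to 98.9% of values matched the log2 of the processed intensity averaged over the probes of a gene, less 1 constant per array, within 0.001, and it was not centred. The methods also subtract a median for each replicate, a step left out here.

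Here, 3671 of 62976 spots were controls and 39 probes were flagged non-uniform. The other 55642 probes were divided by each array's 75th percentile (275 to 367 units) and put back on a common level, averaged per Entrez ID and kept at a median of at least 10. Per array, 51.4 to 55.6% of probes were well above background and 0 were saturated. All 8 arrays share 1 slide and 1 scan, so no batch could be tested, and 2 arrays per group limit the precision. Symbols and promoters came from RefSeq tables (GRCm38.p6). The arrays' own build is another, so no probe positions are given, and the promoter windows carry the coordinates of the RefSeq table.

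The 4 group means were fitted over 8 arrays with limma 3.58.1 in R 4.3.3, with an intensity trend, two-sided tests and Benjamini-Hochberg adjustment. Groups and replicate numbers came from the sample titles, and the design text calls the duplicates independent cultures from different animals. All 10 members were named, with the wider list's called genes (up to 5 per direction), the 3 genes most alike to each called member, and Foxl2. The members and lists were chosen with earlier results of these data known. Alternatives were the background correction, the normalization, the authors' table, the filter, the brightest probe, the intensity trend, the groups fitted, a replicate block and each array left out. The fits of single probes were added after the data had been seen. Scripts were tested on simulated data. Plots were made with Python 3.11.15 and matplotlib 3.10.9.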

Additional observations from a re-analysis of the deposited data

How the results depend on the processing

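Over 17 alternatives and all 6 comparisons, 830 of 900 values of the 9 genes kept their direction and their side of the threshold, 2 lost a call, 4 gained one and 64 changed sign, of which 0 were calls. Pparg with vehicle and averaged, and Angptl4 averaged, were called in every alternative run. The other background correction, the quantile normalization and the authors' table moved the median of all genes by −0.013 to 0.025. The number of the 9 called ranged over the arrays left out in turn from 1 to 2 with vehicle (1 without FOXL2 vehicle replicate 2), from 0 to 1 with E2 (0 without control E2 replicate 1) and stayed at 2 averaged. Arrays with the same number deviated together (correlations 0.33 to 0.44 between groups), but the labels do not say that a number marks a shared pool. With a replicate block, 4 of the 9 were called averaged and 2 with E2, adding Cpt1a (limma adjusted p = 0.0179 and 0.0151) and Rxra averaged (0.0234). Without the intensity trend Rxra averaged was also called (0.0490). The cause was not tested.

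Among the differences the report gives gene by gene, those that changed sign, all uncalled, were Fabp4 (−0.090) and Plin2 (0.013) for E2 with control siRNA and Ppara (−0.042) for E2 with FOXL2 siRNA under normexp, Plin2 for E2 with control siRNA (0.0021) and Ppard averaged (−0.0041) in the authors' table, and Plin2 for E2 with control siRNA (0.0049) under quantile normalization. With 1 array left out, those that changed sign ranged for E2 with control siRNA from −0.56 to 0.59 (Fabp4), −0.10 to 0.087 (Plin2), −0.30 to 0.048 (Ppara) and −0.15 to 0.032 (Pparg). For E2 with FOXL2 siRNA they ranged from −0.22 to 0.029 (Cpt1a), −0.45 to 0.74 (Fabp4), −0.038 to 0.094 (Ppara) and −0.052 to 0.59 (Pparg). Averaged, they ranged from −0.57 to 0.020 (Fabp4), −0.036 to 0.14 (Ppara), −0.069 to 0.071 (Ppard) and −0.11 to 0.034 (probe A_51_P307370), and with vehicle from −0.23 to 0.019 (Cpt1a). The difference of E2 effects of Rxra ranged from −0.11 to 0.078. The remaining sign changes were in differences given there as ranges or counts, with vehicle, with E2 or between the E2 effects, such as those of Fabp4 (−0.93 to 0.26 with vehicle, −0.79 to 0.36 with E2).

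Calls over all genes were 1027 with vehicle, 686 with E2 and 1971 averaged. They were 2932, 2331 and 4326 with the block, 309 to 918, 131 to 629 and 1181 to 1879 with 1 array left out, 633 with vehicle and 379 with E2 without the trend, and 585 with vehicle over only the groups compared, an alternative that could not be fitted for the averaged comparison or the difference of E2 effects. E2 gave 3 and 2 calls and the difference of E2 effects 38, and 182, 96 and 332 with the block. Of the wider list, 2, 0 and 7 were called, 16, 9 and 19 with the block, 0 to 2, 0 to 1 and 2 to 6 with 1 array left out, and 3 averaged without the filter. For E2 with either siRNA and for the difference of E2 effects, the wider list gave 0 calls. Alternatives other than the arrays left out gave 0 to 1 in each. Beside the arrays left out, Acaa2 with vehicle was called in 6 of 9 alternatives, and Plin4, Acsl1, Acsl4 and Dbi averaged in 6 of 8 each. Without the filter, Rxra probe A_55_P2074331 and the dim Foxl2 probe missed the threshold (limma adjusted p = 0.0590 and 0.0535), and Cpt1a probe A_55_P2057405 did so without the trend (0.0550). Signals near background limit Fabp4, Cd36, Plin4 and Plin5.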

Other observations

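Lpl, the lipoprotein lipase that Angptl4 inhibits, was picked from the wider list after its values were seen. It read 13.45 and 12.91 in control vehicle, 12.51 and 11.99 in control E2, 12.82 and 11.92 in FOXL2 vehicle, and 13.86 and 13.03 in FOXL2 E2. E2 arrays lay below vehicle arrays with control siRNA and above them with FOXL2 siRNA, without overlap in either case. Each case sets 2 arrays against 2, and the share of all genes that separate so was not counted. The E2 differences were −0.93 and 1.08, and the difference between them was 2.01 (SE 0.53, limma adjusted p = 0.448), which is not a call. It ranged from 1.56 to 2.46 with 1 array left out. Among the alternatives run it was called with the replicate block alone (limma adjusted p = 1.9e-05). The E2 differences of Lpl with control and FOXL2 siRNA were each called in 1 of 9 alternatives beside the arrays left out (limma adjusted p = 0.0011 and 0.0004).

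Plin5, a lipid droplet coat protein of oxidative tissues, and Fabp3, a fatty acid carrier of heart and muscle, were also picked after their values were seen. Plin5 read 5.83 to 6.65 on the control arrays and 3.82 to 5.65 on the arrays labelled FOXL2 siRNA, an averaged difference of −1.33 (SE 0.36) that missed the threshold (limma adjusted p = 0.0501). It was not well above background on FOXL2 vehicle replicate 2, and the difference was −0.49 with normexp background correction. It was called in 2 of 8 alternatives beside the arrays left out. Fabp3 read 8.93 to 9.82 on the control arrays and 9.97 to 11.15 on the others. Its averaged difference was 1.15 (SE 0.35, limma adjusted p = 0.074). That difference was called in 1 of 8 alternatives beside the arrays left out (limma adjusted p = 7.9e-07).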
